A study of Rattus norvegicus with 24 samples.

Results

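Complement in the rat liver was followed through 9 genes, C3, C1qa, C1qb, C1qc, C2, C5, C6, C9 and Cfb. They were found as the probe sets whose platform annotation names 1 of these genes and no other, which gave 11 probe sets of 31139 on the array and 9 genes of 13438 measured. C2 had 3 probe sets and each other gene had 1. Total RNA from liver was hybridised for 24 male Sprague Dawley rats aged 8 weeks, 1 rat and 1 array each, in 4 groups of 6. Rats of the ANIT groups had a single intragastric dose of alpha-naphthylisothiocyanate (ANIT), a compound toxic to bile duct epithelium and to hepatocytes, at 50 mg/kg in corn oil, and vehicle rats had corn oil alone in the same volume of 10 ml/kg. Livers were taken 24 h after dosing, which the labels give as peak injury, or 120 h after it, given as its resolution. All 4 groups shared the corn oil, a fast of about 18 h before necropsy and an injection of 100 mg/kg bromodeoxyuridine, a label of dividing cells, about 2 h before it.

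Complement is a set of plasma proteins that mark targets and lyse membranes through a chain of proteolytic steps. C1q, built from chains encoded by C1qa, C1qb and C1qc, binds antibody and dying cells and starts the classical pathway, and in most tissues macrophages and dendritic cells make it. The liver's hepatocytes make most plasma C3, C5, C6, C9, C2 and factor B, several of them as acute phase proteins, although macrophages can make C3, C2 and factor B as well. In bulk liver RNA, fewer cells of a type and less RNA per cell cannot be told apart.

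The genes of the C1q chains lie next to each other among the protein-coding genes of chromosome 5, in the order C1qb, C1qc, C1qa, and C2 lies beside Cfb on chromosome 20, in the RefSeq gene table of assembly GRCr8. That table's promoter windows matched 5 of the 9 genes: C3, C1qa, C1qb, C5 and C6. The 250 bases before the gene start are shown for a pair of hepatocyte-made components that rose at 24 h and for a pair of C1q chains, 5′ to 3′ on the gene's own strand, which is the minus strand for all 4. C3 is at chr9:2201340-2201589, C5 at chr3:38759469-38759718, C1qb at chr5:154407828-154408077 and C1qa at chr5:154419934-154420183, all in GRCr8. Capitals mark a match to a STAT-type motif (TTCNNNGAA), a C/EBP-type motif (TTGCNNAA) or an interferon-type motif (GAAA repeated after 2 free bases), searched on both strands.
C3: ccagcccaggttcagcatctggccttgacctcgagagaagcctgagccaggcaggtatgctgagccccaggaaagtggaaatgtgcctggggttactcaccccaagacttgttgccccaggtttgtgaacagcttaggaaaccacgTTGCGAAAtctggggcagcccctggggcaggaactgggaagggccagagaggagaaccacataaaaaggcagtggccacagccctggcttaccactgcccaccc
C5: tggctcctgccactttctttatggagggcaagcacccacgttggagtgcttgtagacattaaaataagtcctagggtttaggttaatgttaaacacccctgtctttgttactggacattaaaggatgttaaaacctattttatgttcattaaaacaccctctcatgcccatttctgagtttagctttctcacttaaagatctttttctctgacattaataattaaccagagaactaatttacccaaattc
C1qb: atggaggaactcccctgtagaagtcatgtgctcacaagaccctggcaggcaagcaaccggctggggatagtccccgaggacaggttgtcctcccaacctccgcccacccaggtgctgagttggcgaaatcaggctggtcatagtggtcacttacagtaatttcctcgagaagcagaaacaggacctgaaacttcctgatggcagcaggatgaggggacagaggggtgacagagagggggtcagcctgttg
C1qa: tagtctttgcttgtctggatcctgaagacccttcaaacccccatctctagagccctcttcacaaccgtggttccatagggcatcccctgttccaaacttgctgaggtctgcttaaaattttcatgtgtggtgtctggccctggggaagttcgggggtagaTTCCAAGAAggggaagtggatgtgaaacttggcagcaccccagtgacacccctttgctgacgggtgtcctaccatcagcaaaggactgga
The windows searched ran from 250 bases before to 50 bases after the start. C3 held 1 C/EBP-type match, first base at position -104 from the start, and C1qa held 1 STAT-type match at position -90. C6, not shown, held 1 C/EBP-type match at -176 on the other strand, while C5 and C1qb held none of these 3 motifs. Of 33469 rat promoter windows of the same length, 8.87% held the STAT-type motif, 10.6% the C/EBP-type motif and 3.92% the interferon-type motif. An NF-kB-type motif, GGG and CC with 5 free bases between, was in the windows of C3, C5, C1qb and C1qa but not of C6, and in 47.3% of all windows. These are matches of letters and no measure of binding.

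Values are log2 expression values as deposited, and a difference of 1 is a doubling. Differences are ANIT minus vehicle group means with the standard error of a limma model over all 24 arrays, and adjusted p-values are Benjamini-Hochberg values over 13438 genes. A gene is said to rise or fall where its adjusted p is under 0.05. The RNA was that of liver: albumin (Alb) and transthyretin (Ttr) had mean levels above those of 99.9% of genes or more. Array SDs ran from 1.84 to 2.09. The 6 arrays with SDs of 1.84 to 1.90, called narrow here, were 3 of the vehicle rats at 24 h (replicates 3, 4 and 5) and 3 of the ANIT rats at 120 h (replicates 4, 5 and 6), and no label names a batch behind them. The log2 ratio of 3′ to 5′ beta-actin probe sets, a sign of RNA integrity and of priming, was 3.12 ± 0.07 (SD, n = 6) in ANIT livers and 2.84 ± 0.05 (SD, n = 6) in vehicle livers at 24 h (two-sided exact permutation test, p = 0.0021645, adjusted p = 0.012987 over 6 tests of array measures). The groups did not overlap in this ratio, with 2.98 to 3.18 in ANIT and 2.77 to 2.91 in vehicle livers. The level of the spiked hybridisation controls was 10.81 ± 0.25 and 11.16 ± 0.38 in these groups (SD, n = 6 and 6, exact permutation p = 0.0909, adjusted p = 0.268).

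At 24 h, 4 of the 9 genes rose, none fell and 5 were not called, whereas 18.2% of all genes were called, 12.9% higher and 5.31% lower. Higher genes made up 70.9% of those calls, 81.2% with the arrays shifted to a common median, 61.6% with quantile normalization and 47.9% with the spiked control level as a covariate. The genes that rose were C9, C5, C3 and C1qb. At an unadjusted p under 0.05, 5 genes were higher and 0 lower. The median difference over the 9 genes was 0.25, and over all genes tested it was 0.00. By origin, 3 of 6 hepatocyte-made components and 1 of 3 C1q chains rose, with median differences of 0.23 and 0.30.

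**Figure D1:**
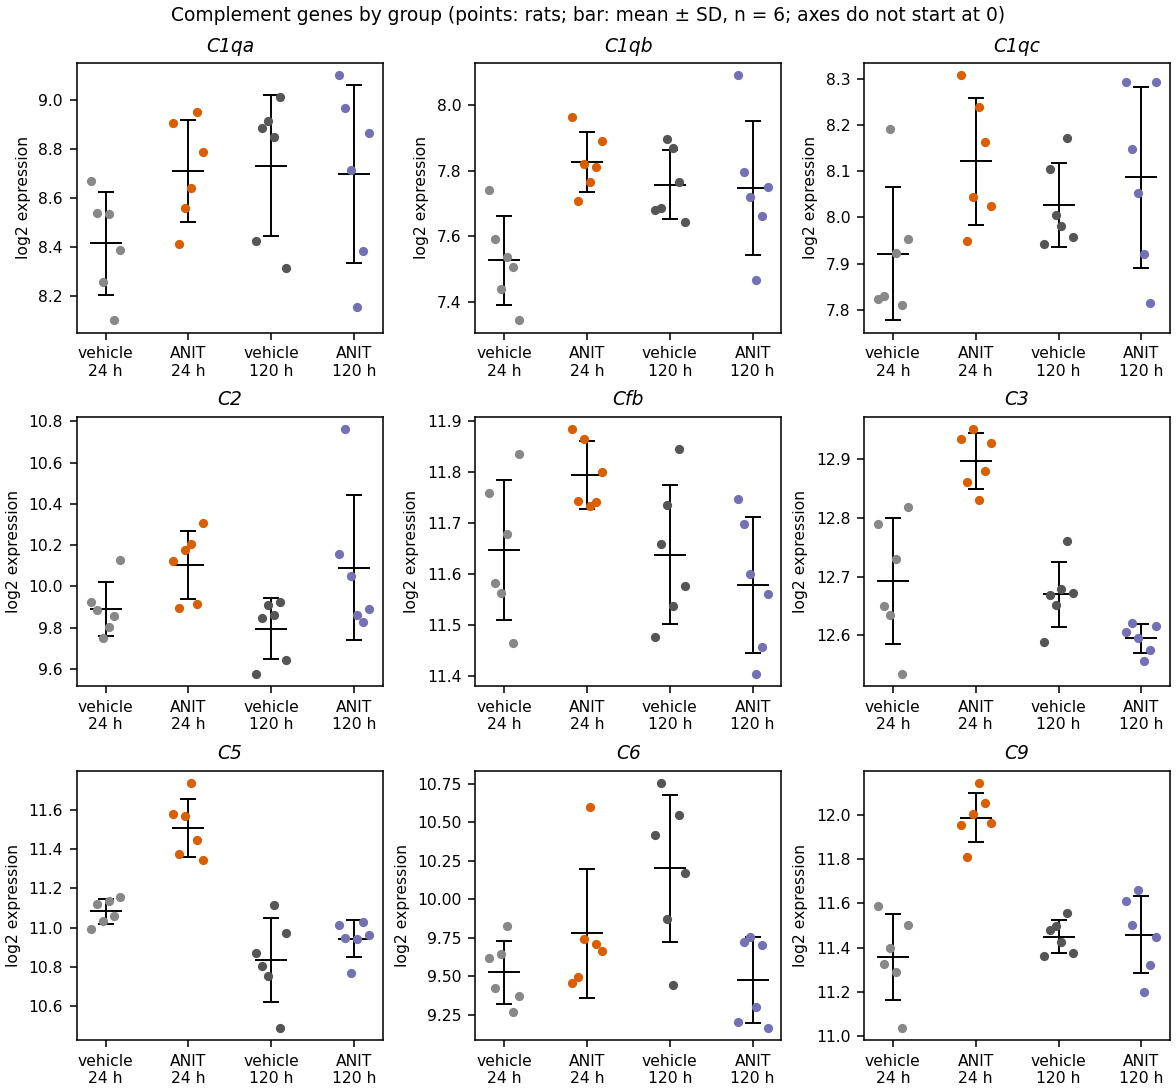
Log2 expression of the 9 complement genes in the 4 groups, 1 panel per gene, each point 1 rat, with the group mean as the long bar and its SD as the whiskers (n = 6). The vertical axes do not start at 0 and differ between panels. In C3, C5 and C9 the 6 ANIT rats at 24 h all lie above the 6 vehicle rats of that time.

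C9, the protein that polymerises into the wall of the membrane attack complex, gave the largest rise among the 9. Its lowest, median and highest levels were 11.04, 11.36 and 11.59 in vehicle livers at 24 h and 11.81, 11.98 and 12.14 in ANIT livers. The groups did not overlap. The difference was 0.63 ± 0.09 (n = 6 and 6), or 1.55-fold, with an adjusted p of 2.29e-05 by limma. C9 remained called with any 1 of the 24 arrays left out and under all 9 alternative settings, with differences from 0.50 to 0.70.

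C5, the precursor of the C5a anaphylatoxin and of C5b, which begins the membrane attack complex, was at 10.99, 11.09 and 11.16 in vehicle livers at 24 h and at 11.34, 11.51 and 11.74 in ANIT livers. Here too the ranges were apart. C5 rose by 0.42 ± 0.09 (1.34-fold, n = 6 and 6, adjusted p = 0.00161 by limma). It remained called with any 1 array left out. With the beta-actin ratio as a covariate, which differed between the groups, the difference was 0.36 with an adjusted p of 0.134.

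C3, on which all the activation routes converge, was at 12.53, 12.69 and 12.82 in vehicle livers and at 12.83, 12.90 and 12.95 in ANIT livers. The groups did not overlap, but the highest vehicle rat lay close under the lowest ANIT rat. C3 rose by 0.20 ± 0.06 (1.15-fold, n = 6 and 6, adjusted p = 0.0276 by limma). In all, 3 of the 9 genes had every ANIT rat above every vehicle rat at 24 h, against 5.54% of all genes tested. For either direction the share was 7.87%, and for ANIT below vehicle 2.32%, which none of the 9 showed. The call of C3 was lost without vehicle replicate 2, 3 or 5 or without ANIT replicate 1, 3 or 6 of that time (adjusted p from 0.0537 to 0.0732). It was also lost with quantile normalization (adjusted p = 0.0556), with the spiked control level as a covariate (0.0544), with the beta-actin ratio as a covariate (0.314), in a fit of the 12 arrays of that time (0.0985) and without the narrow arrays (difference 0.14, adjusted p = 0.277).

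C6, a further part of the membrane attack complex, was at 9.27, 9.52 and 9.82 in vehicle livers and at 9.46, 9.69 and 10.60 in ANIT livers at 24 h. Apart from replicate 4 at 10.60, the ANIT rats lay among the vehicle rats. The difference of 0.25 ± 0.20 was not called (adjusted p = 0.396, limma).

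Factor B (Cfb), the protease component of the alternative pathway convertase, was at 11.46, 11.63 and 11.84 in vehicle livers and at 11.73, 11.77 and 11.88 in ANIT livers. Of the 6 ANIT rats, 2 lay above all vehicle rats and the others within the upper part of the vehicle range, and the difference of 0.15 ± 0.08 was not called (adjusted p = 0.236, limma).

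C2, the homologous protease component of the classical pathway convertase, was at 9.75, 9.87 and 10.13 in vehicle livers and at 9.90, 10.15 and 10.31 in ANIT livers by its brightest probe set. The difference was 0.21 ± 0.13 (adjusted p = 0.252, limma). In a fit of all 31139 probe sets, of which 11.8% were called at 24 h, the 3 probe sets of C2 gave 0.21, 0.35 and 0.60, with adjusted p-values of 0.297, 0.0515 and 0.127. None of them was called, although all 6 ANIT rats lay above all vehicle rats by the probe set with 0.35.

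Of the C1q chains, C1qb was called at 24 h. Its lowest, median and highest levels were 7.34, 7.52 and 7.74 in vehicle livers and 7.71, 7.82 and 7.96 in ANIT livers. All ANIT rats but 1 lay above all vehicle rats. C1qb rose by 0.30 ± 0.09 (1.23-fold, n = 6 and 6, adjusted p = 0.0221 by limma). The call was lost without vehicle replicate 3 or 6 or without ANIT replicate 1 or 6 of that time (adjusted p from 0.0513 to 0.0598). It was also lost with quantile normalization (difference 0.14, adjusted p = 0.255), with the spiked control level as a covariate (0.0711), without the narrow arrays (0.128), and with the beta-actin ratio as a covariate, where the difference was 0.04 with an adjusted p of 0.93.

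C1qa was at 8.10, 8.46 and 8.67 in vehicle livers and at 8.41, 8.71 and 8.95 in ANIT livers at 24 h. Its difference of 0.30 ± 0.15 was as large as that of C1qb but the spread between rats was wider, and it was not called (adjusted p = 0.191, limma). With the beta-actin ratio as a covariate it was -0.10. C1qc was at 7.81, 7.88 and 8.19 in vehicle livers and at 7.95, 8.10 and 8.31 in ANIT livers, a difference of 0.20 ± 0.09 that was not called (adjusted p = 0.149, limma).

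**Figure D2:**
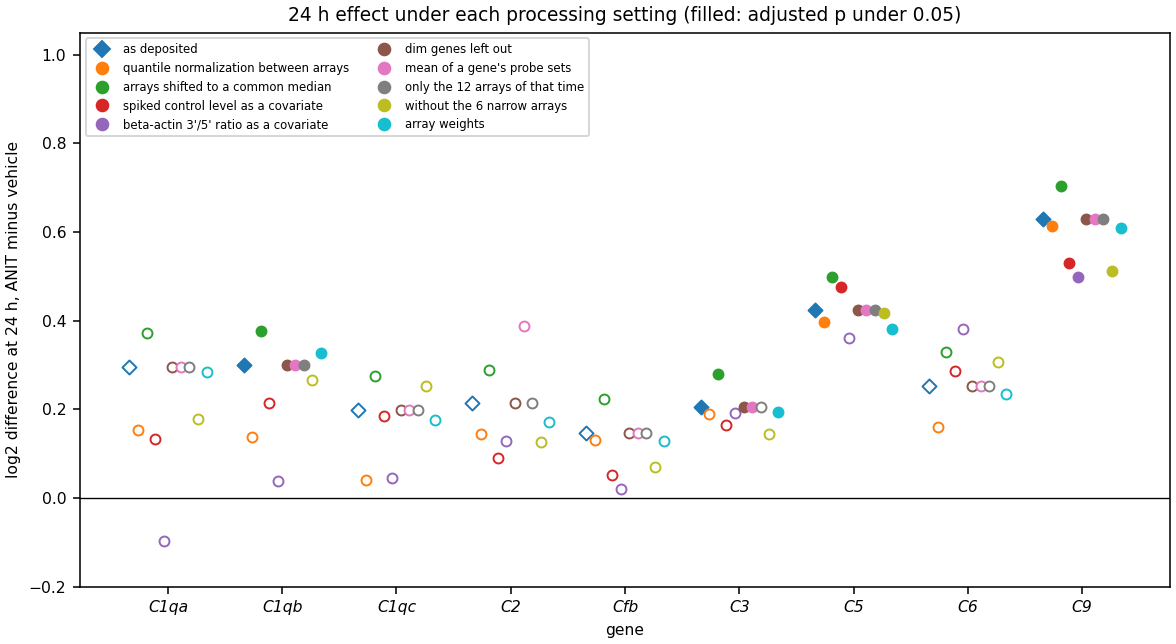
Log2 difference between ANIT and vehicle at 24 h for each of the 9 genes (horizontal axis) under the values as deposited (diamonds) and 9 alternative settings (circles), filled where the adjusted p is under 0.05. C9 is filled under every setting, C5 under all but the beta-actin covariate, and C1qa runs from -0.10 to 0.37.

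At 120 h, 0 of the 9 genes were called by limma, against 2.02% of all genes (0.513% higher and 1.51% lower), and the median difference over the 9 was -0.01, as over all genes. At an unadjusted p under 0.05, 1 gene was higher (C2) and 1 lower (C6). A call that misses the threshold does not show equal levels, and the 95% intervals give the sizes left possible. For C9 the difference was 0.01, with an interval from -0.18 to 0.20. For C5 it was 0.11 (interval -0.08 to 0.30), and for C3 it was -0.08 (interval -0.21 to 0.06).

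The levels behind these values were 11.36, 11.45 and 11.56 for C9 in vehicle livers (lowest, median, highest) and 11.20, 11.48 and 11.66 in ANIT livers at 120 h. For C5 they were 10.49, 10.84 and 11.12 against 10.77, 10.95 and 11.03. For C3 they were 12.59, 12.67 and 12.76 against 12.56, 12.60 and 12.62. In each of these 3 genes the ANIT and vehicle ranges overlapped at 120 h, and so they did in all 9, against 2.14% of all genes without overlap, 1.58% with ANIT below vehicle.

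C6 had the largest difference at 120 h, downwards. Its levels were 9.45, 10.29 and 10.76 in vehicle livers and 9.17, 9.50 and 9.76 in ANIT livers, and only vehicle replicate 4, at 9.45, lay within the ANIT range. The difference was -0.73 ± 0.20 (n = 6 and 6), with an interval from -1.13 to -0.32 and an adjusted p of 0.0514 by limma, so C6 was not called. It passed the threshold without vehicle replicate 4 at 120 h (difference -0.88, adjusted p = 0.0134), without ANIT replicate 2 or 3 at 120 h (0.0462 and 0.041), and without ANIT replicate 4 at 24 h (0.023). It also passed with the spiked control level as a covariate (-0.74, adjusted p = 0.0274) and with dim genes left out of the test (0.0324). C6 was also 0.67 ± 0.20 higher in vehicle livers at 120 h than at 24 h, a difference that was not called (adjusted p = 0.23, limma).

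C2 was 0.30 ± 0.13 higher in ANIT livers at 120 h (interval 0.04 to 0.56, adjusted p = 0.273, limma), with levels of 9.57, 9.86 and 9.93 in vehicle livers and 9.83, 9.97 and 10.76 in ANIT livers. The top of that range was replicate 2. Its other probe sets gave 0.19 and -0.05, not called, in the fit of all probe sets, where 0.954% were called. Cfb differed by -0.06 (interval -0.23 to 0.11).

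The C1q chains lay close to vehicle at 120 h. The differences were -0.04 for C1qa (interval -0.35 to 0.28), -0.01 for C1qb (-0.20 to 0.18) and 0.06 for C1qc (-0.13 to 0.25). Both values under 0 turned positive with quantile normalization, with either covariate, without the narrow arrays and with array weights. The ANIT rats spread more widely than at 24 h: C1qa ran from 8.15 through a median of 8.79 to 9.10, against 8.31, 8.87 and 9.01 in vehicle livers. C1qb ran from 7.47 through 7.73 to 8.09, against 7.64, 7.73 and 7.90. C1qc ran from 7.81 through 8.10 to 8.29, against 7.94, 7.99 and 8.17. For each of the 3 chains, ANIT rats lay both above and below the whole vehicle range.

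**Figure D3:**
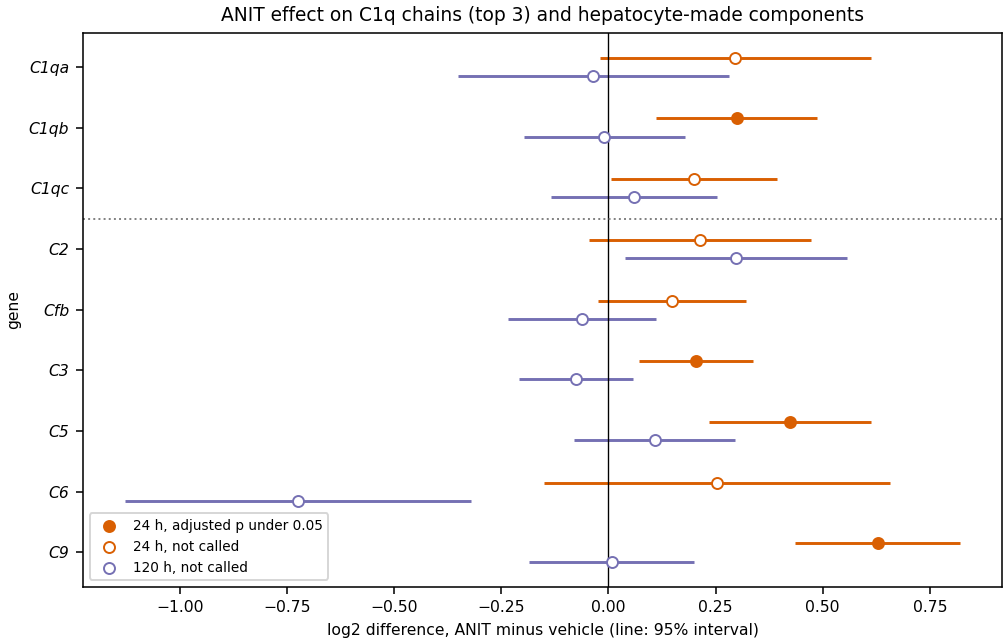
Log2 difference between ANIT and vehicle with its 95% interval for the 3 C1q chains (above the dotted line) and the 6 hepatocyte-made components, at 24 h (orange) and 120 h (purple), filled where the adjusted p is under 0.05. At 24 h all 9 points lie above 0 and 4 are filled. At 120 h none is filled, and C6 lies farthest from 0, at -0.73.

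The comparison of effects between times asks which genes responded differently at 120 h and 24 h, and the effects at the times share no array. The effect of ANIT was lower at 120 h for 3 of the 9 genes and higher for 0, against 14.3% of all genes called, 11% lower and 3.33% higher. The median of this difference was -0.02 over all genes. At an unadjusted p under 0.05, 5 of the 9 were lower and 0 higher by limma. For C9 the effect was lower by -0.62 ± 0.13 (adjusted p = 0.00235), and for C6 by -0.98 ± 0.28 (0.0191). Both calls held with any 1 array left out. C9 lost the call with the beta-actin ratio as a covariate (adjusted p = 0.209) and without the narrow arrays (difference -0.37, adjusted p = 0.102). C6 lost it under the same settings (0.123 and 0.144) and with quantile normalization (0.0514).

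For C3 the effect was lower by -0.28 ± 0.09 (adjusted p = 0.0405, limma). That call rested on many arrays: it was lost without vehicle replicate 2, 3, 4 or 5 or ANIT replicate 1, 3 or 6 of 24 h, and without vehicle replicate 2, 3, 4, 5 or 6 or ANIT replicate 4, 5 or 6 of 120 h, with adjusted p-values from 0.0518 to 0.0727. It was also lost with quantile normalization (adjusted p = 0.0766), with the control level (0.089) or the beta-actin ratio (0.342) as a covariate, and without the narrow arrays (difference -0.21, adjusted p = 0.332). The values for C5 and C1qb were -0.32 ± 0.13 (adjusted p = 0.101) and -0.31 ± 0.13 (0.107), not called. C5 was called without vehicle replicate 5 of 120 h (0.0373), with a common median (0.0272) and with the control covariate (0.045), and C1qb without vehicle replicate 1 of 24 h (0.0476) or ANIT replicate 1 of 120 h (0.0308). For C1qa it was -0.33 (0.306), for Cfb -0.21 (0.237), for C1qc -0.14 (0.482) and for C2 0.08 (0.767). Thus no C1q chain and 3 of the hepatocyte-made components passed this test, and whether the C1q chains differed from the hepatocyte-made components in their change was not tested.

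The vehicle groups give the background. Vehicle livers at 120 h and 24 h differed in 0 of the 9 genes by limma, against 0.00744% of all genes, 1 gene. At an unadjusted p under 0.05, 3 of the 9 were higher at 120 h (C6, C1qa and C1qb) and 1 lower (C5). C1qa was 0.32 ± 0.15 higher (adjusted p = 0.407), C1qb 0.23 ± 0.09 higher (0.346), and C5 differed by -0.25 ± 0.09 (0.327). These differences are of the size of the ANIT differences of the C1q chains at 24 h. The C1qb levels of ANIT livers at 24 h, 7.71 to 7.96, overlapped those of vehicle livers at 120 h, 7.64 to 7.90. For C9 and C5, ANIT livers at 24 h lay above the vehicle livers of both times: C9 began at 11.81 against vehicle maxima of 11.59 and 11.56, and C5 began at 11.34 against 11.16 and 11.12. These comparisons share vehicle arrays with the ANIT comparisons.

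Macrophage and Kupffer cell markers are given beside the C1q chains, since those cells make C1q. Of 20 monocyte and macrophage markers, 19 were measured. At 24 h, 3 of the 19 rose and 0 fell, with 0 lower at an unadjusted p under 0.05: the lectin Lgals3 by 1.13 ± 0.23 (adjusted p = 0.000793), S100a4 by 0.83 ± 0.18 (0.00139) and the lysozyme gene Lyz2 by 0.54 ± 0.14 (0.00865), all by limma. Each of the 3 lost its call under 1 alternative setting. The 3 were 15.8% of the list, near the 12.9% of all genes called higher at 24 h. For this and the marker lists that follow, 5.31% of all genes were called lower at 24 h. At 120 h the shares over all genes were 0.513% higher and 1.51% lower. The median over the list was 0.02, below the 0.30 of the C1q chains. Mean marker levels ran from 6.63 to 6.83 in vehicle livers and from 6.75 to 7.05 in ANIT livers. At 120 h, 1 of the 19 rose, Gpnmb, a glycoprotein of lipid-laden and phagocytic macrophages, by 1.08 ± 0.19 (0.00273), and 0 fell. At an unadjusted p under 0.05, 5 of the 19 were higher and 0 lower by limma, and 17 of the 19 differences were above 0. The list median was 0.15, and marker levels ran from 6.68 to 6.96 and from 6.83 to 7.26. The monocyte markers Itgam, Ccr2 and Cx3cr1 were dim, with mean levels no higher than those of 14.6% of genes.

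Of 10 Kupffer cell markers, 7 were measured. At 24 h Il18bp (0.62 ± 0.10, adjusted p = 4.83e-05) and the haptoglobin-haemoglobin receptor Cd163 (0.38 ± 0.10, 0.0102) rose and the iron exporter Slc40a1 fell (-0.35 ± 0.08, 0.0044), with a list median of 0.00. The 24 h call of Cd163 was lost under 3 of 9 alternative settings. At 120 h Slc40a1 (0.38 ± 0.08, 0.0163) and Cd163 (0.43 ± 0.10, 0.0239) rose and Il18bp fell (-0.42 ± 0.10, 0.02), all by limma, with a list median of 0.18. At 120 h the call of Cd163 was lost without vehicle replicate 1, 5 or 6 or ANIT replicate 6 (adjusted p up to 0.0747), and that of Il18bp without vehicle replicate 2 or 5 or ANIT replicate 5 or 6 (up to 0.0528). Of 9 alternative settings at 120 h, 3 lost the call of Cd163 (up to 0.109), 2 that of Il18bp (up to 0.09) and 1 that of Slc40a1 (0.0828). Mean levels of the list ran from 8.58 to 8.87 in vehicle and 8.66 to 8.83 in ANIT livers at 24 h, and from 8.56 to 8.89 and 8.81 to 9.02 at 120 h. The part of cell number in the C1q values was not tested.

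Markers of other blood cells moved at 24 h too. Of 9 neutrophil markers measured, 3 rose and 0 fell, with 0 lower at an unadjusted p under 0.05. The calprotectin subunits S100a8 and S100a9 rose by 1.82 ± 0.38 (adjusted p = 0.00132) and 0.87 ± 0.22 (0.00598), and the decoy interleukin-1 receptor Il1r2 by 0.84 ± 0.16 (0.000591), all by limma. S100a9 lost its call with the beta-actin covariate. Neutrophils also express Lyz2 and S100a4 of the macrophage list. All 10 lymphocyte and NK cell markers measured had differences below 0, with a median of -0.21, and 2 fell. These were Cd8a of cytotoxic T cells (-0.56 ± 0.14, adjusted p = 0.00693) and the B cell receptor component Cd79b (-0.32 ± 0.10, 0.0301). Cd8a lost its call with the mean of its probe sets (-0.23), and Cd79b under 5 of 8 alternative settings and without vehicle replicate 3, 5 or 6 or ANIT replicate 2, 5 or 6 of 24 h (adjusted p up to 0.0715). All of the 10 but Cd8a, Prf1 and Lck were dim, with mean levels no higher than those of 27.1% of genes. At 120 h the list median was 0.19, with 8 of the 10 above 0. The narrow arrays were of vehicle rats at 24 h and of ANIT rats at 120 h, and their part in these medians was not tested. At 24 h, 1 of 8 liver endothelial markers rose and 2 fell, 1 of 12 stellate cell and fibroblast markers rose and 2 fell, and 1 of 8 bile duct markers fell. At 120 h, 3 of the 8 bile duct markers rose and no marker of the other 4 lists was called by limma, with 7 higher and 1 lower at an unadjusted p under 0.05. The part of these cells in the values of the complement genes was not tested.

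Between rats of a group, the C1q chains and the macrophage markers were low in the same livers. After group means were subtracted, 6 arrays stood apart with low marker means, from -0.21 to -0.14, against -0.03 to 0.22 on the other 18. These were vehicle replicate 5 and ANIT replicate 2 at 24 h, and vehicle replicates 1 and 6 and ANIT replicates 4 and 5 at 120 h, 3 of them narrow arrays. On the same 6 arrays the mean of the C1q chains lay between -0.33 and -0.15, below all of the other 18, where it lay between -0.08 and 0.32. The mean of the hepatocyte-made components lay between -0.16 and -0.03 on those 6 and between -0.09 and 0.20 on the other 18, so it overlapped. Markers of other cells were low on those 6 arrays as well. On all 6 the mean of the Kupffer cell markers was below 0 (-0.22 to -0.04), as was that of the liver endothelial markers (-0.25 to -0.01) and of the stellate cell and fibroblast markers (-0.30 to -0.07), each overlapping the other 18. The means of the neutrophil and the lymphocyte and NK cell markers were below 0 on 5 of the 6, and that of the hepatocyte markers on 2. The part of these cells in the low C1q values was not tested. Within the 18, Pearson's r of the C1q mean with the marker mean was 0.47 (Spearman's rho 0.21), and -0.01 without the 2 arrays farthest in the markers, so the value rested on those arrays. Within the 6 it was 0.56 (rho 0.66). For the hepatocyte-made components r was 0.17 in each set. The points share libraries, and these values are a description.

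**Figure D4:**
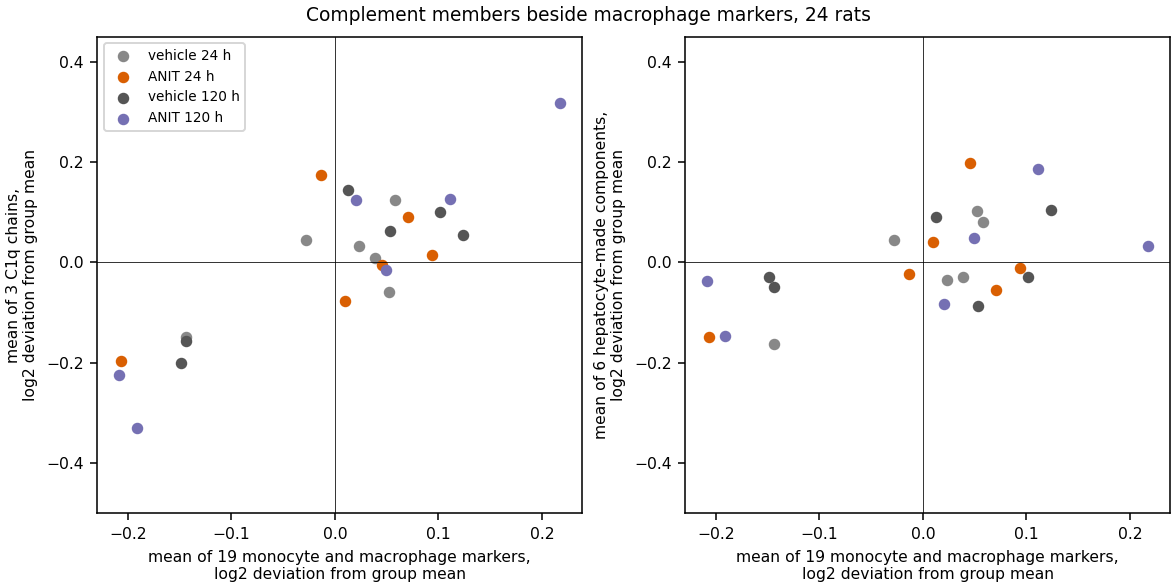
Mean of the 3 C1q chains (left) and of the 6 hepatocyte-made components (right) against the mean of 19 monocyte and macrophage markers, each as the log2 deviation from the group mean, with 1 point per rat coloured by group. In the left panel 6 rats from all 4 groups lie together at the lower left, below -0.14 on both axes. In the right panel the same rats overlap the others in height.

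Among the members themselves, deviations of the 3 C1q pairs correlated with r of 0.30 to 0.76 over 24 arrays, those of the 15 hepatocyte-made pairs with -0.31 to 0.80, and those of the 18 mixed pairs with -0.26 to 0.71. The highest value was that of C3 with Cfb. These r values include the 6 low arrays and the narrow arrays. Deviations also followed the level of the spiked controls, with r of -0.74 for Cfb, -0.64 for C9, -0.58 for C3, -0.58 for C1qb, -0.56 for C1qa and -0.53 for C2, but 0.35 for C5, 0.09 for C6 and -0.08 for C1qc.

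By likeness over the 24 arrays after subtraction of group means, the genes nearest to the C1q mean were Cybb, the phagocyte oxidase subunit, with r = 0.90, Aif1, a macrophage calcium-binding protein, with 0.85, and Lst1 with 0.81. Cnst and Slc25a51 followed, both with 0.80. Cybb and Aif1 are on the macrophage marker list, but not all of that list went with the C1q chains. Trem2 had r of -0.39 with C1qa and -0.53 with C1qb, and Laptm5 had -0.24 and -0.31. Itgam, Ccr2 and Cx3cr1 were also below 0 with both of these chains, and the list's other measured markers were above 0 with both. With C1qc, Trem2 was at 0.04, while Laptm5 (-0.16), Mrc1 (-0.11), Itgam, Ccr2 and Cx3cr1 were below 0. All these r values include the 6 low arrays. With group means kept, the gene nearest to C9 was Derl1 (r = 0.95), of endoplasmic reticulum protein export, followed by Gmppa and Serp1 (both 0.94). Those nearest to C5 were fibronectin, Fn1 (0.92), Itih4 (0.89) and ceruloplasmin, Cp (0.89). The values of C9 and C5 with group means kept carry the differences between groups. After subtraction of group means, those nearest to C9 were Ddx60 (0.89), Csrp1 (0.88) and Ptpn18 (0.84). For C5 they were Hrk (0.75), Pjvk (0.69) and Avpr1b (0.69), and Cp came after them with 0.64. With group means kept, the C1q mean was nearest to Rac2 and Aif1 (both 0.84), and Cybb and Lst1 were not among its nearest 5.

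Of 51 other genes listed with the pathway, 38 were measured. At 24 h, 8 of the 38 rose, 3 fell and 27 were not called, with a median difference of 0.03, and at 120 h 0 rose, 3 fell and 35 were not called, with a median of -0.04. The 8 include Hgfac, which was listed with the alternative pathway but is not a component of it. They also include Calr, Lrp1 and C1qbp, listed as receptors and binding partners and not components of the cascade. The count of 8 therefore depends on how the list was filled, and is no excess of pathway components over the share of all genes. At an unadjusted p under 0.05, 1 of the 38 was higher at 120 h. Over all genes tested, 12.9% were called higher and 5.31% lower at 24 h, and 0.513% and 1.51% at 120 h. None of the 9 genes fell at 24 h, but with 5.31% of all genes called lower, 9 genes are too few to set this against the list.

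Among the other classical and lectin pathway proteins, 1 of 11 rose and 2 fell at 24 h. The largest change was in Mbl2, the mannose-binding lectin that starts the lectin pathway. Its levels were 11.24, 11.44 and 11.78 in vehicle livers and 10.00, 10.63 and 10.73 in ANIT livers, without overlap. Mbl2 fell by 0.95 on the log2 scale (SE 0.12, adjusted p = 1.94e-06 by limma), and its effect was 0.78 higher at 120 h than at 24 h (adjusted p = 0.0024). Colec11, a collectin of the same pathway, fell at 24 h (-0.53 ± 0.12, adjusted p = 0.00178), and the pentraxin Crp rose (0.22 ± 0.07, 0.0277). The C1q-associated proteases C1r and C1s differed by -0.22 (adjusted p = 0.126) and -0.21 (0.0912), not called, while the C1q chains were at 0.20 to 0.30. At 120 h Masp2, a protease of the lectin pathway, fell (-0.48 ± 0.11, 0.0163), a call absent with the mean of its probe sets (-0.01). Of 9 alternative settings, 5 lost the call of Masp2, that mean included, and 3 lost that of Crp. The calls of Crp and Masp2 were lost without any 1 of several arrays, Crp's without vehicle replicate 3 or 5 or ANIT replicate 2, 4 or 6 of 24 h (adjusted p up to 0.0693), and that of Masp2 without vehicle replicate 5 or ANIT replicate 4, 5 or 6 of 120 h (up to 0.0537).

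Of the soluble regulators, 3 of 8 rose and 1 fell at 24 h. C4bpa and C4bpb, the chains of C4b-binding protein, which restrains the classical pathway convertase, rose by 0.46 ± 0.08 (adjusted p = 9.98e-05) and 0.36 ± 0.08 (0.00159). C4bpa ran from 11.58 to 11.89 in vehicle and from 12.12 to 12.27 in ANIT livers. Serping1, the inhibitor of the C1 proteases, rose by 0.41 ± 0.09 (0.00133). Cpn1, a subunit of the carboxypeptidase that inactivates anaphylatoxins, fell (-0.49 ± 0.10, 0.00133), all by limma. With the beta-actin ratio as a covariate the adjusted p-values of C4bpa and Serping1 were 0.079 and 0.144. None of the 8 was called at 120 h, with 1 higher and 1 lower at an unadjusted p under 0.05.

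None of 4 membrane regulators, Cd46, Cd55, Cr1l and Susd4, was called by limma at either time, and 0 passed an unadjusted p of 0.05. Of 9 receptors and binding partners, 3 rose at 24 h, the chaperone calreticulin, Calr (0.39 ± 0.07, adjusted p = 0.000404), the endocytic receptor Lrp1 (0.38 ± 0.09, 0.00501) and C1qbp (0.35 ± 0.10, 0.0175). The other 6 were not called, so none of the list's measured receptors for complement fragments rose. At an unadjusted p under 0.05, 5 of the 9 were higher and 0 lower by limma. C1qbp lost its call without vehicle replicate 4 (0.0507) or ANIT replicate 6 (0.0532) of 24 h. None of the 9 was called by limma at 120 h, and 0 passed an unadjusted p of 0.05. C1qbp and Lrp1 each lost the 24 h call under 2 of 9 alternative settings. Of 3 measured genes listed with the alternative pathway, only Hgfac rose at 24 h (0.45 ± 0.10, 0.00184), and none was called at 120 h. Hgfac is a secreted protease best known for activating hepatocyte growth factor and not a component of that pathway. The other measured genes of that list were thus not called at either time. C3 and Cfb, which also act in the alternative pathway, are among the 9 genes above, and C3 rose at 24 h.

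The other terminal pathway genes, which act beside C6 and C9, were not called at 24 h by limma, with 1 higher at an unadjusted p under 0.05, and 2 of 3 fell at 120 h. C8g, the gamma chain of C8, ran from 11.88 to 12.06 in vehicle and from 11.42 to 11.70 in ANIT livers, apart from each other. It fell by 0.42 on the log2 scale (SE 0.07, adjusted p = 0.00152 by limma). C8a ran from 11.50 to 11.80 and from 11.35 to 11.41, also apart, a difference of -0.25 ± 0.07 (adjusted p = 0.0483). That call was kept without vehicle replicate 1 or 5 of 24 h or vehicle replicate 1 of 120 h, and lost without any 1 of the other 21 arrays, with adjusted p-values up to 0.138, and under 5 of 9 alternative settings. Between times the effect on C8a and C8g differed by -0.41 (adjusted p = 0.00566) and -0.35 (0.0183). C9 was at 0.01 at 120 h and C6 at -0.73, not called.

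**Figure D5:**
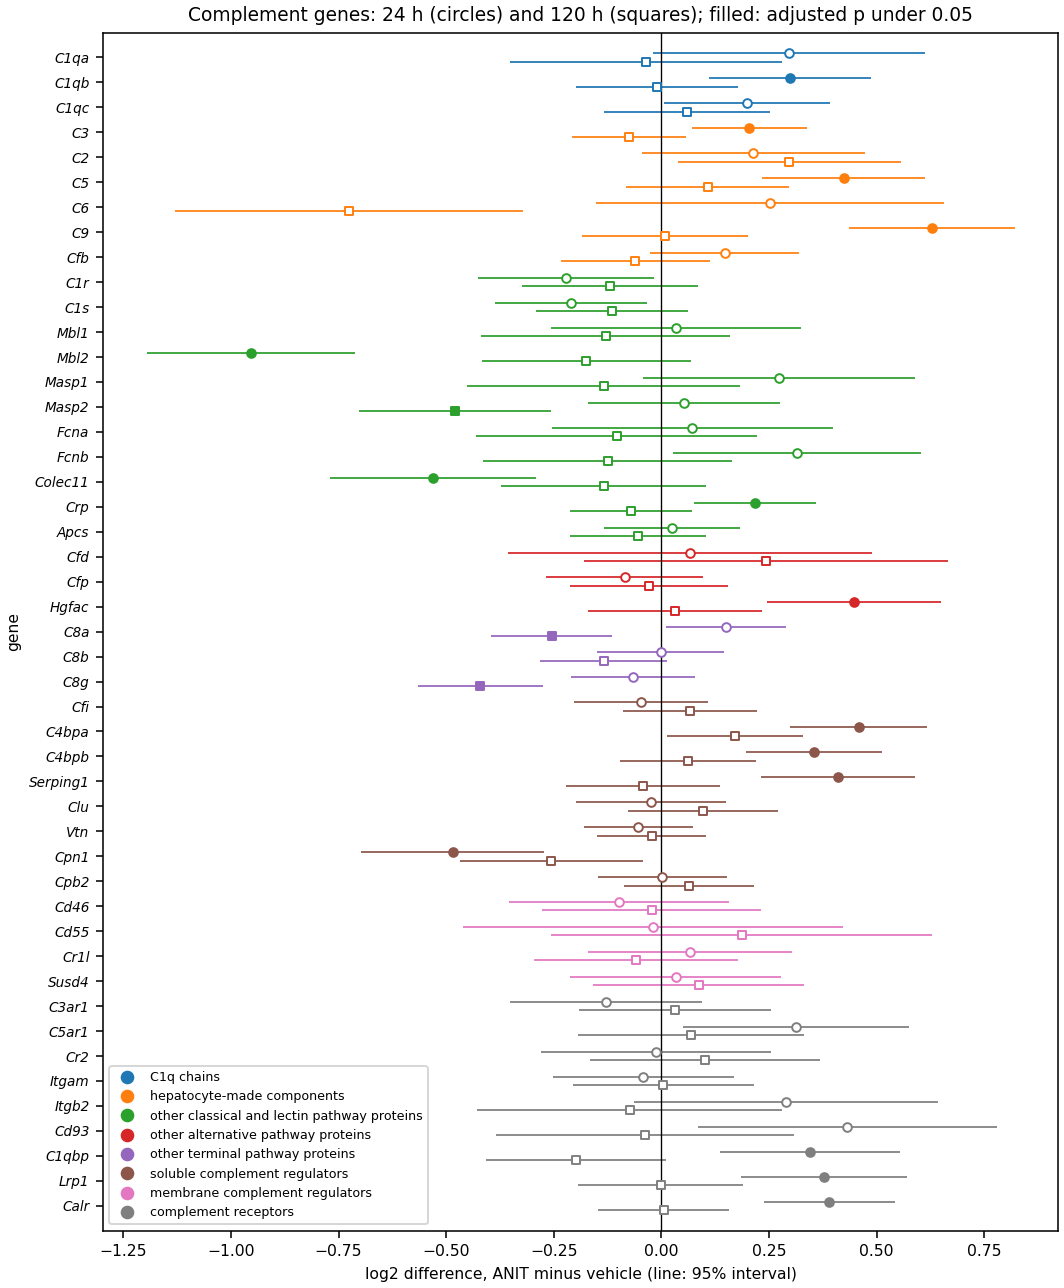
Log2 difference between ANIT and vehicle with its 95% interval for the 9 complement genes and 38 other genes listed with the pathway, coloured by list, at 24 h (circles) and 120 h (squares), filled where the adjusted p is under 0.05. Mbl2 lies farthest to the left at 24 h, at -0.95, and C9 farthest to the right, at 0.63. The filled squares are Masp2, C8a and C8g, all left of 0.

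Acute phase proteins, plasma proteins whose output by hepatocytes changes in inflammation, are the class to which several complement genes belong. Most are raised, while albumin (Alb) and transthyretin (Ttr), also on the list used here, are ones that hepatocytes lower. Of 19 measured, 15 rose at 24 h and 0 fell, with 2 lower at an unadjusted p under 0.05 and a median of 0.28 beside the 0.25 of the 9 genes. At 120 h 2 rose, Lcn2 (1.72 ± 0.36, adjusted p = 0.0106) and Hamp (1.5 ± 0.34, 0.019), and 0 fell or passed an unadjusted p of 0.05 downwards, with a median of 0.04. The call of Hamp was lost without vehicle replicate 2 or 3 or ANIT replicate 6 of 120 h (adjusted p up to 0.0541), and under 1 of 9 alternative settings (0.0659). Of 17 genes for cytokine signals to hepatocyte complement genes, 7 rose at 24 h, among them the interleukin-1 receptor Il1r1 (2.57 ± 0.26, adjusted p = 8.97e-08) and the transcription factor Stat3 (1.52 ± 0.19, 1.96e-06), both by limma. At 120 h none of the 17 rose and 1 fell, the interleukin-6 receptor Il6r (-0.63 ± 0.17, 0.0457), whose call was lost without vehicle replicate 2, 4 or 6 or ANIT replicate 3, 4 or 6 of 24 h, and without vehicle replicate 1, 2, 3, 4 or 5 or ANIT replicate 3, 5 or 6 of 120 h (adjusted p up to 0.129). The call of Il6r was also lost under 5 of 9 alternative settings (adjusted p up to 0.195). Of 17 hepatocyte markers, 2 rose and 2 fell at 24 h, with a median of -0.07. Only 2 of the 17 differences were above 0, and 2 were higher and 5 lower at an unadjusted p under 0.05. None was called by limma at 120 h, with 2 higher and 2 lower at an unadjusted p under 0.05. Their mean levels ran from 12.01 to 12.20 in vehicle and from 11.96 to 12.20 in ANIT livers at 24 h. The part of hepatocyte number in the values of C9, C5 and C3 was not tested.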

How the data were processed

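Liver RNA of 24 rats was measured on 24 one-colour arrays. The authors deposited log2 expression values per probe set, and RMA (robust multi-array average) and Partek are named per the submitters' processing notes, while the sources used here give no version or setting. The values were used as deposited, although the columns did not share 1 distribution. Depth is not defined for arrays, and their number limits precision. The 9 members and all gene lists were chosen with earlier results of these data known.

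Genes were named through the platform annotation, where 19068 probe sets named 1 gene, and each of 13438 genes took its probe set with the highest mean. All 9 members matched the current gene table by Entrez identifier. A model of the 4 group means was fitted with limma 3.58.1 in R 4.3.3 (lmFit, eBayes), with contrasts at each time, between times and between vehicle groups, and checked on simulated data. The call threshold was 0.05 on p-values adjusted by Benjamini-Hochberg across every gene tested. Groups came from the labels, which name separate rats. Replicate numbers follow accession order and pair nothing.

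Besides the members, the text names called genes of each pathway list, at most 4 genes of each marker or comparison list by smallest p, and a part of the 5 genes most alike to a member. Also named are C1r, C1s and the membrane regulators, which were not called. Further markers are named for their level or for their r with the C1q chains. Alternatives were quantile normalization, a common array median, the spiked control level or the beta-actin ratio as a covariate, leaving out genes under the median level, the mean of a gene's probe sets, the 12 arrays of 1 time, omission of the 6 narrow arrays, array weights, and leaving out each array. Plots were made in matplotlib 3.10.9 under Python 3.11.15.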

Additional observations from a re-analysis of the deposited data

Results flagged for a closer look

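In 44 groups of 6 values, 1 per member probe set and group, the outermost value was tested for its gap to the rest (Dixon's criterion), and about 1 in 20 such groups (5%) passes by chance. In 4 groups it passed. C6 in ANIT livers at 24 h had replicate 4 highest, at 10.60, with the nearest rat at 9.74. C2, by its brightest probe set, had ANIT replicate 2 highest at 120 h, at 10.76, with the nearest rat at 10.16. C1qc had vehicle replicate 3 highest at 24 h, at 8.19, against 7.95 for the nearest. C5 had ANIT replicate 3 lowest at 120 h, at 10.77, against 10.94.

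The effect of ANIT differed between the times by limma's test of the difference for 3 members: C3 by -0.28, C6 by -0.98 and C9 by -0.62, each 120 h minus 24 h on the log2 scale. For C9 the effects were 0.63 at 24 h and 0.01 at 120 h. For C6 they were 0.25 and -0.73, and neither was called on its own. For C3 they were 0.20 and -0.08.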

How the results depend on the processing

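No paired analysis was possible because the labels give every rat its own identifier and the replicate numbers follow accession order. Against 4 members called at 24 h, 2 were called with quantile normalization, with the control level as a covariate or without the narrow arrays, and 1 with the beta-actin covariate. At 120 h, 1 was called with the control covariate or without dim genes. For the difference between times, against 3, 1 was called with quantile normalization and 0 with the beta-actin covariate or without the narrow arrays. Leaving out each array gave 2 to 4, 0 to 1 and 2 to 4 members.

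Over all genes, 907 were called at 24 h with the beta-actin covariate and 1554 without the narrow arrays, against 2451. At 120 h, against 272, the counts were 460 with quantile normalization, 143 with a common median, 674 with the control covariate and 176 from 12 arrays. For the difference, against 1924, they were 438 with the beta-actin covariate and 852 without the narrow arrays. Between vehicle groups, against 1, they were 17 with quantile normalization, 3 with the control covariate or probe-set means, 2 with the beta-actin covariate, 12 without dim genes, 0 without the narrow arrays and 149 with array weights. Leaving out each array gave 1829 to 3534 genes at 24 h, 152 to 343 at 120 h (under 168 without vehicle replicate 3 or 5 or ANIT replicate 4, 5 or 6), 1430 to 3148 for the difference (3148 without vehicle replicate 1 of 24 h) and 1 to 175 between vehicle groups (175 without vehicle replicate 1 of 24 h, and 2 without vehicle replicate 3 or 6 or ANIT replicate 1, 3 or 6 of 120 h). A common median moved the median difference between times over all genes to -0.13, from -0.02, and higher genes from 23.3% to 12.1% of its calls, against 36.5% with quantile normalization and 47.0% with the control covariate. At 120 h they moved from 25.4% to 41.5% and 37.5% under those.

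Values that changed sign were of members that were not called, apart from the lymphocyte marker Cd79b at 24 h, called at -0.32 and 0.0035 with the beta-actin covariate. At 120 h, C1qa and C1qb were 0.068 and 0.086 with quantile normalization, 0.035 and 0.027 with the control covariate, 0.069 and 0.060 with the beta-actin covariate, 0.20 and 0.11 without the narrow arrays and 0.10 and 0.053 with array weights. C9 was -0.026 with a common median, and Cfb 0.044 without the narrow arrays and 0.015 with array weights. At 24 h C1qa was -0.10 with the beta-actin covariate. For the difference between times, C1qc was 0.12 with quantile normalization, C1qa, C1qb and C1qc were 0.17, 0.022 and 0.056 with the beta-actin covariate, C1qa was 0.017 without the narrow arrays, and C2 was -0.026 with a common median and -0.24 with probe-set means. Between vehicle groups, C1qc was -0.040 with quantile normalization, C3 and Cfb 0.034 and 0.047 with a common median, C2 0.047 with probe-set means and C9 -0.024 without the narrow arrays. Leaving out each array gave C1qa -0.12 to 0.074, C1qb -0.078 to 0.046 and C9 -0.033 to 0.059 at 120 h, C2 -0.050 to 0.14 between times, and C3 -0.055 to 0.0023 and Cfb -0.051 to 0.029 between vehicle groups. Where a call changed, the cause was not tested.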
